A study of Mus musculus with 113 samples.

Results

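*Neurog1*, *Neurog2*, *Neurod1*, *Neurod4*, *Nhlh1*, *Nhlh2*, *Myt1*, *Insm1* and *Olig2* are 9 transcription factor genes of neurogenesis, taken by gene symbol out of the 23739 gene symbols listed in the 4 deposited gene tables of a mouse embryonic stem cell (mESC) differentiation study. The study followed mESCs on their way to neural cells by RNA-seq, in whole populations and in single cells, and asked how far the state of a cell tracks the time since induction. All 9 genes were listed in the tables of the adherent culture and of the E14 lines. The table of cell populations in SFEB culture held 8 of them, all but *Olig2*, and the table of single cells held 6, all but *Neurog1*, *Neurod4* and *Myt1*. A gene missing from a table was not analysed there.

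Background to these genes is as follows. Proneural factors are basic helix-loop-helix (bHLH) proteins that pair with an E-protein, bind the E-box and push a dividing neural progenitor out of the cycle and into the neuronal fate. They switch on the Notch ligand Dll1, through which the cell holds its neighbours back as progenitors, and a cascade of later bHLH genes. *Neurog1* and *Neurog2* act at the top of this cascade, *Neurod1* and *Neurod4* below them, and *Nhlh1* and *Nhlh2* mark newborn neurons. *Myt1* and *Insm1* encode zinc-finger proteins that act beside the bHLH factors, Myt1 by opposing Notch signalling and Insm1 in delaminating, newly committed progenitors. *Olig2* encodes a bHLH factor of ventral spinal cord progenitors, which give motor neurons and later oligodendrocytes.

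R1 mESCs were used in the time courses. Feeder cells were removed by a passage without feeders before induction. In SFEB culture the cells float as embryoid body-like aggregates in serum-free medium. Its populations were sampled in a first series of 14 libraries, from 0 to 142 h, and in a parallel series of 8 libraries, from 0 to 216 h. At each of the 8 times of the parallel series 8 single cells were picked by hand, 64 in all. The adherent culture, a monolayer on gelatin in N2B27 medium, was sampled in 15 libraries from 0 to 216 h. In both protocols the cells were dissociated and replated late in the course, before the 216 h samples. In the other experiment wild type E14 mESCs and *Fyn*-KO E14 mESCs were sampled on days 0 and 4, with 3 replicates in each of the 4 groups. Fyn is a Src-family kinase. The *Fyn*-KO cells are 1 clone in which Cas9 removed a stretch of *Fyn* that includes its start codon, so a difference between genotypes cannot be told apart from a difference between clones. Each time point of the courses was 1 library.

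The deposited values are FPKM (fragments scaled to transcript length and to the total of mapped reads) or, in the cells, log10(RPKM + 1). Their read depth is unknown, and no counting interval could be set on a level. *Fyn* was lower in every *Fyn*-KO library than in any wild type library, at 0.598 to 1.58 against 2.74 to 9.44 FPKM. The wild type day 4 replicate 1 stood apart from the other replicates of its group, with r of 0.942 and 0.946 across genes against 0.965 between the other replicates, as did *Fyn*-KO day 0 replicate 3, with r of 0.931 and 0.946 against 0.981, and wild type day 0 replicate 1, with r of 0.959 and 0.962 against 0.981. The summed level of 8 fibroblast genes was 798 and 851 FPKM at 0 h of the SFEB series and 343 FPKM at 0 h of the adherent course, against 11.9 FPKM in the 142 h SFEB library. Of the marker lists, the pluripotency list was present at 0 h. The summed level of the neuronal list was already above 0 at 0 h and was higher late. *Map2* of the neuronal list was not found at 1 FPKM in a time course, which also holds for a symbol that a table does not list.

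Promoter sequences of *Nhlh1* and *Nhlh2* are shown because each had the highest level of the 9 genes in one of the cultures, and because the E-box is the element that bHLH factors bind. The sequences are the 250 bases before the RefSeq transcript start on GRCm38.p6, printed 5′ to 3′ in the direction of the gene, with every E-box (CANNTG) in capitals. The *Nhlh1* window is chr1:172057597-172057846 on the minus strand, and the *Nhlh2* window is chr3:102009895-102010144 on the plus strand.
Nhlh1: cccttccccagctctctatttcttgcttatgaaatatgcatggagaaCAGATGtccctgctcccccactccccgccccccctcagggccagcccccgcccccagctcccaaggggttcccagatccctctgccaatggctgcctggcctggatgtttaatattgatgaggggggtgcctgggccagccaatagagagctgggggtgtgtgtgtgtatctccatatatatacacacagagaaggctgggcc
Nhlh2: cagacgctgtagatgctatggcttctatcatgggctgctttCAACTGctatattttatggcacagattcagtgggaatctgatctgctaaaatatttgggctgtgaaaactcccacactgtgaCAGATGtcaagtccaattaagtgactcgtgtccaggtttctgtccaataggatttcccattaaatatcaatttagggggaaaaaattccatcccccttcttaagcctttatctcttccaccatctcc
The *Nhlh1* window held 1 E-box, CAGATG, which begins at position -203 relative to the transcript start. The *Nhlh2* window held 2, CAACTG at position -209 and CAGATG at position -127. Windows of 300 bases, running to 50 bases after the start, were matched for 8 of the 9 genes (11 windows), all but *Insm1*. CAGATG, or CATCTG for the other strand, was found in the windows of *Nhlh1* and *Nhlh2*, which is 2 of 8 genes (25.0%), against 19.2% of all genes and 17.2% of all 32851 windows. CAGCTG, the same on both strands, was found in *Neurod4* and *Nhlh2*, against 18.3% of all genes. CANNTG, which includes both, was found in 6 of 8 genes (75.0%), and 75.0% of all genes held it. CACNAG, the N-box letters read on both strands, was found in 4 of 8 genes (50%), against 46.1% of all genes. These shares are close to those of all genes, and a match of letters is not a bound site.

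In SFEB culture most of the neurogenic genes were near their floor for the early days and had their highest levels after 106 h. *Insm1* was already above 1 FPKM from 22 h in the first series, and *Neurod1* was present throughout. *Nhlh2* reached 29.7 FPKM at 142 h and 32.1 FPKM at 216 h, *Insm1* reached 22.5 FPKM at 216 h, and *Nhlh1*, *Myt1*, *Neurog2* and *Neurog1* reached between 10.8 and 19.1 FPKM there. *Neurod1* was at 6.27 FPKM at 0 h, before induction, and was at no lower than 1.14 FPKM in any of the 22 libraries. In bulk samples, fewer cells of a type and less RNA per cell cannot be told apart.

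**Figure D1:**
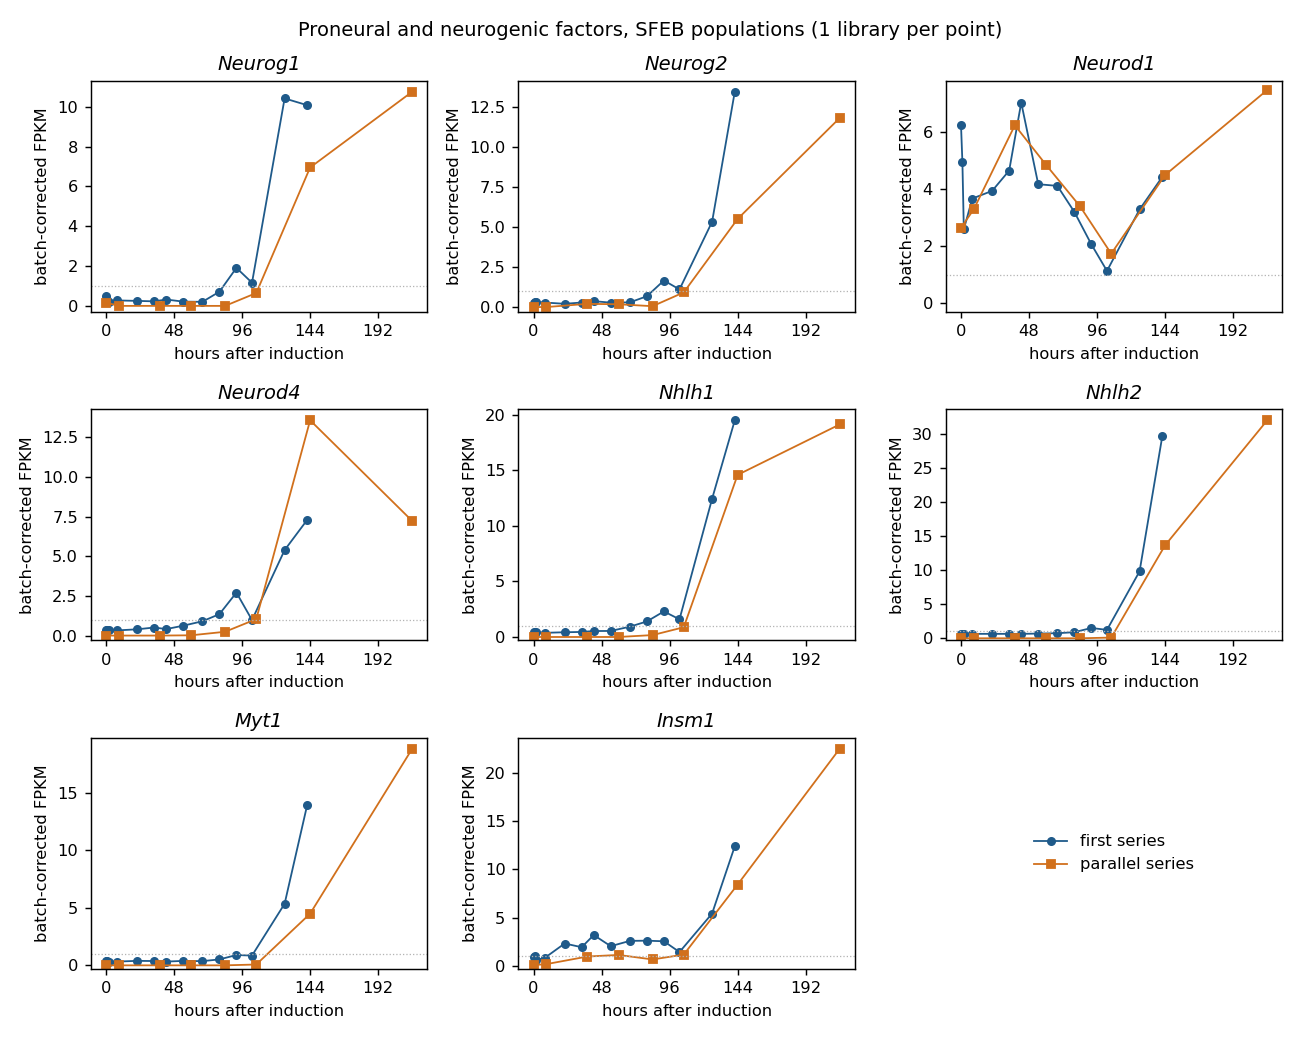
Levels in FPKM (vertical axis) of the 8 genes listed for SFEB culture against hours after induction (horizontal axis), 1 library per point, with the first series and the parallel series drawn separately and no error bars because there are no replicates. *Nhlh2* ends at 29.7 FPKM in the first series and at 32.1 FPKM in the parallel series, while *Neurod1* has values of 6.27 and 2.65 FPKM at 0 h.

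*Neurog1* (chr13:56351866-56353524 on NCBIM37, minus strand, a single-exon gene) was at 0.204 to 0.498 FPKM in the first series up to 68 h. It then read 0.712 at 80 h, 1.91 at 92 h, 1.16 at 103 h, 10.4 at 126 h and 10.1 FPKM at 142 h. In the parallel series it was at most 0.163 FPKM up to 84 h and read 0.646 at 106 h, 6.96 at 144 h and 10.8 FPKM at 216 h. Its high samples were those from 126 h on in both series. *Neurog2* (chr3:127336054-127338549, plus strand, 2 exons) followed a similar course, with 0.202 to 0.370 FPKM up to 68 h, 0.675 at 80 h, 1.66 at 92 h, 1.10 at 103 h, 5.33 at 126 h and 13.5 FPKM at 142 h. The parallel series gave at most 0.200 FPKM up to 84 h, then 0.917 at 106 h, 5.51 at 144 h and 11.8 FPKM at 216 h. Both are the upstream proneural genes, and which of them was the higher in FPKM changed between samples: the ratio of *Neurog1* to *Neurog2* was 1.96 at 126 h, 0.750 at 142 h, 1.26 at 144 h and 0.911 at 216 h.

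*Neurod4* (chr10:129705209-129717296, minus strand, 2 exons), a bHLH factor of the later cascade, read 0.902 FPKM at 68 h, 1.35 at 80 h, 2.71 at 92 h, 0.980 at 103 h, 5.39 at 126 h and 7.30 FPKM at 142 h in the first series. In the parallel series it read 1.04 at 106 h, 13.6 at 144 h and 7.23 FPKM at 216 h, and it was the only one of the 8 genes with its parallel-series maximum at 144 h and not at 216 h. *Neurod1* (chr2:79292678-79296908, minus strand) behaved otherwise. In the first series it read 6.27 FPKM at 0 h, 2.59 at 2 h, 7.03 at 42.5 h, 4.12 at 68 h, 2.06 at 92 h, 1.14 at 103 h, 3.29 at 126 h and 4.43 FPKM at 142 h. In the parallel series its 8 values were 2.65, 3.29, 6.24, 4.85, 3.40, 1.74, 4.5 and 7.47 FPKM in order of time. Both series had a high value at 38 to 42.5 h, the lowest value at 103 to 106 h, and a higher value afterwards.

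*Nhlh1* (chr1:173982423-173987704, minus strand, 2 exons) was at 0.377 to 0.543 FPKM up to 54.5 h in the first series and read 0.929 at 68 h, 1.4 at 80 h, 2.30 at 92 h, 1.59 at 103 h, 12.4 at 126 h and 19.5 FPKM at 142 h. The parallel series gave 0.171 at 84 h, 0.876 at 106 h, 14.6 at 144 h and 19.1 FPKM at 216 h. *Nhlh2* (chr3:101814068-101819415, plus strand, 3 exons) was the lower of the pair at 92 h and the higher at 142 and 216 h. It read 0.896 FPKM at 80 h, 1.52 at 92 h, 1.24 at 103 h, 9.85 at 126 h and 29.7 FPKM at 142 h, and in the parallel series 0.104 at 106 h, 13.7 at 144 h and 32.1 FPKM at 216 h. The ratio of *Nhlh1* to *Nhlh2* was 1.26 at 126 h, 0.657 at 142 h, 1.07 at 144 h and 0.597 at 216 h. Early levels of these genes are not measurable in this table. *Nhlh2* stands at the same 0.651 FPKM in 6 early libraries of the first series, *Neurod4* at the same 0.327 FPKM in 4, and the early *Nhlh2* values of the parallel series were below 0 as deposited (-0.527 at the lowest) and were set to 0.

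*Myt1* (chr2:181498037-181562502, plus strand, up to 23 exons) was among the last to come up, tied with *Neurod4* in the first series. It was at 0.313 to 0.389 FPKM up to 68 h and read 0.515 at 80 h, 0.896 at 92 h, 0.848 at 103 h, 5.35 at 126 h and 14 FPKM at 142 h, and in the parallel series 0.0717 at 106 h, 4.49 at 144 h and 18.8 FPKM at 216 h. *Insm1* (chr2:146047657-146050752, plus strand, a single-exon gene) was the earliest apart from *Neurod1*. It read 0.918 FPKM at 0 h, 0.611 at 2 h, 2.32 at 22 h, 3.20 at 42.5 h, 2.55 at 92 h, 1.44 at 103 h, 5.43 at 126 h and 12.4 FPKM at 142 h. The parallel series gave 0.0830 at 0 h, 0.971 at 38 h, 1.14 at 60 h, 1.17 at 106 h, 8.43 at 144 h and 22.5 FPKM at 216 h. Its course thus had an early plateau and a late rise.

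Levels were tested as a slope per day on log2(FPKM + 1) across all 22 SFEB libraries, with a term for the series, in limma with Benjamini-Hochberg adjustment over 13363 genes. *Nhlh2* rose by 0.55 ± 0.08 per day (SE; adjusted p = 3.94e-06, limma), *Nhlh1* by 0.55 ± 0.06 (1.82e-07), *Neurog1* by 0.45 ± 0.06 (1.41e-06) and *Myt1* by 0.44 ± 0.06 (3.00e-06). *Neurog2* rose by 0.44 ± 0.05 per day (2.77e-07), *Neurod4* by 0.42 ± 0.05 (4.63e-07) and *Insm1* by 0.41 ± 0.05 (1.58e-07). *Neurod1* had a slope of -0.0024 ± 0.046 (adjusted p = 0.967, limma), with a 95% interval from -0.097 to 0.092. So 7 of 8 genes rose, where 35.5% of all genes tested did. Apart from *Insm1*, these 7 genes met the filter of 1 FPKM in 3 libraries through libraries from 80 h on alone, so this count describes them and is not independent of the filter. With 1 library per time point the error is the scatter around a straight line.

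The slopes of the first and the parallel series did not differ detectably for any of the 8 genes. In the limma test of the difference 0 of 8 were called, also 0 at an unadjusted p under 0.05, where 7.24% of all genes were called in either direction. The difference (parallel minus first series) was largest for *Neurod1*, at 0.17 per day with a 95% interval from -0.0072 to 0.35 (adjusted p = 0.217, limma), and smallest for *Neurog2*, at -0.0099 with an interval from -0.23 to 0.21. These intervals leave room for differences of about the size of the slopes in some genes, *Nhlh2* among them (-0.23 to 0.45).

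Within the first series the genes did not climb steadily. From 92 to 103 h all 8 genes were lower in the later library, among them *Neurod4* from 2.71 to 0.980 FPKM and *Insm1* from 2.55 to 1.44 FPKM, where 50.6% of all genes tested were lower at 103 h. The parallel series has no library between 84 and 106 h, so it could not show a dip after 92 h. There 1 of 8 genes (*Neurod1*) was lower at 106 h than at 84 h, against 42.3% of all genes. From 80 to 103 h of the first series *Neurod1*, *Neurod4* and *Insm1* were lower. *Neurog1*, *Neurog2*, *Nhlh1*, *Nhlh2* and *Myt1* were higher over that span. In the adherent culture 3 of 8 (*Neurog2*, *Myt1* and *Insm1*) were lower at 101.5 h than at 92.5 h, against 47.1%. In the first series from 103 to 126 h 0 of 8 were lower, against 44.6% of all genes. In the parallel series the step from 106 to 144 h likewise had 0 of 8 lower, against 46.2% of all genes. These steps compare single libraries and were not tested. The time from which a gene stayed at 1 FPKM or more gave the order of appearance in the first series. *Neurod1* was above it throughout, *Insm1* from 22 h, *Nhlh1* from 80 h, *Neurog1*, *Neurog2* and *Nhlh2* from 92 h, and *Neurod4* and *Myt1* from 126 h. In the parallel series *Neurod4* and *Insm1* stayed above it from 106 h and the other rising genes from 144 h. These times move with the threshold, and at 2 FPKM 8 of 8 genes have 126 h in the first series and 144 h in the parallel series.

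In the adherent culture the same genes came up, *Nhlh1* highest of all at 25.9 FPKM, and *Neurod1* again stood apart, with its maximum at 53.5 h. *Nhlh2* reached 22.8 FPKM and *Myt1* 16.7 FPKM at 216 h. The proneural pair was unequal here: *Neurog1* reached 20.4 FPKM at 140.5 h, when *Neurog2* was at 2.19 FPKM. This table was normalized separately, without batch correction, and its levels are set beside those of SFEB culture without a test.

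**Figure D2:**
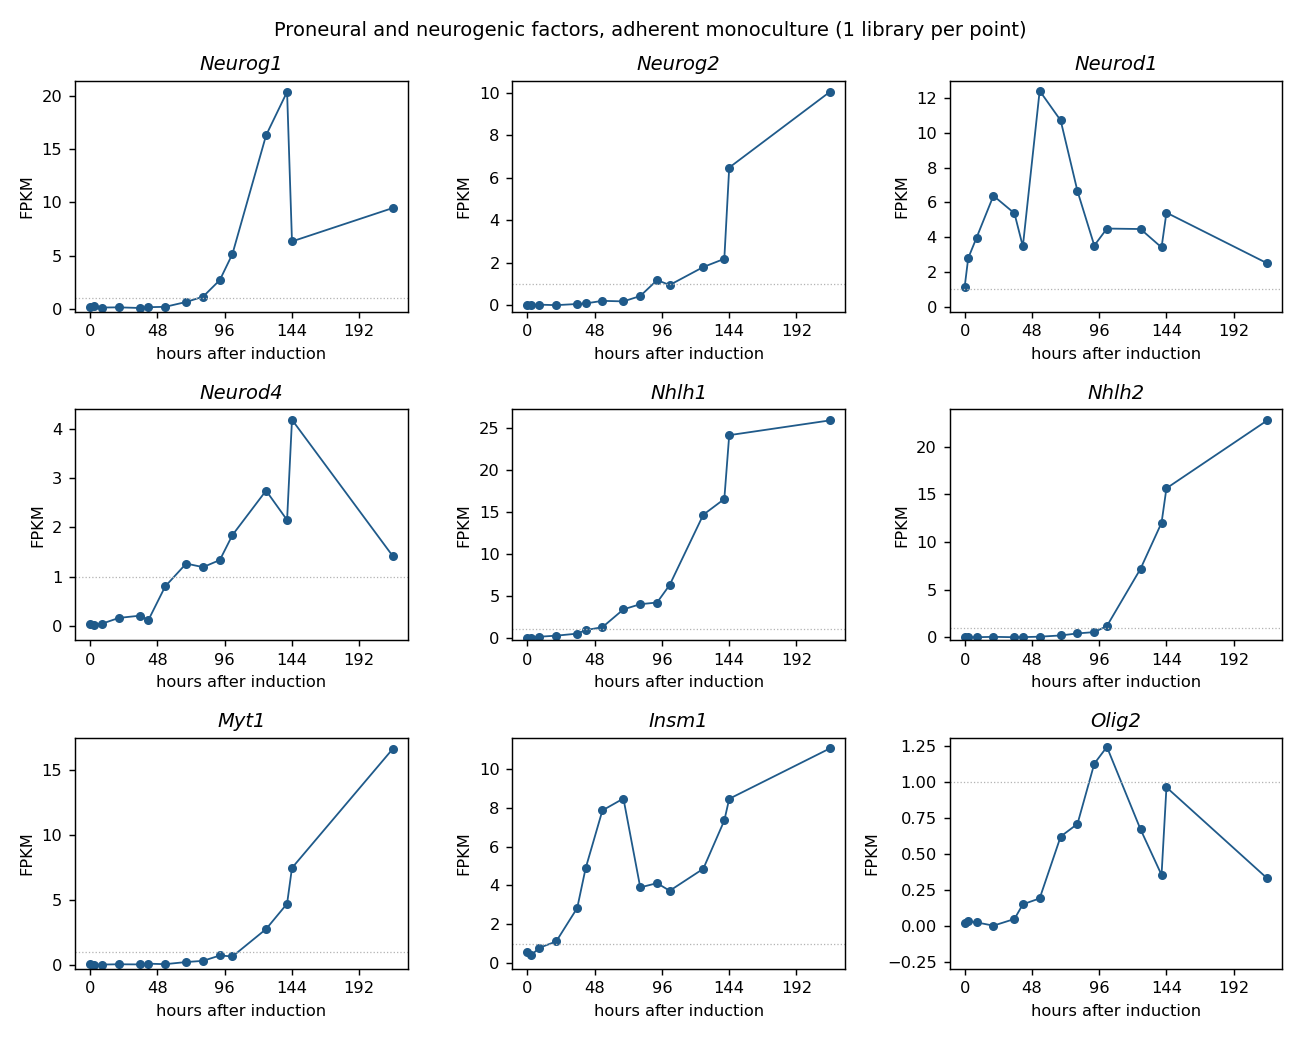
Levels in FPKM (vertical axis) of the 9 genes in the adherent culture against hours after induction (horizontal axis), 1 library per point, with no error bars because there are no replicates; the dotted line is 1 FPKM. *Neurog1* is at 20.4 FPKM at 140.5 h and 6.33 FPKM at 144 h, where *Neurog2* is at 2.19 and 6.49 FPKM, and *Neurod1* has its maximum of 12.4 FPKM at 53.5 h.

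*Neurog1* was at 0.064 to 0.205 FPKM up to 53.5 h and read 0.632 at 68.5 h, 1.13 at 80.5 h, 2.70 at 92.5 h, 5.15 at 101.5 h, 16.3 at 125.5 h, 20.4 at 140.5 h, 6.33 at 144 h and 9.48 FPKM at 216 h. *Neurog2* read 0.445 at 80.5 h, 1.19 at 92.5 h, 0.963 at 101.5 h, 1.81 at 125.5 h, 2.19 at 140.5 h, 6.49 at 144 h and 10.1 FPKM at 216 h. The ratio of *Neurog1* to *Neurog2* was 5.35 at 101.5 h, 9.02 at 125.5 h and 9.30 at 140.5 h, and 0.976 at 144 h and 0.943 at 216 h. *Neurog1* was above *Neurog2* in each library from 68.5 to 140.5 h and slightly below it in the last 2. Earlier, both were low and in no fixed order, with *Neurog1* at 0.064 and *Neurog2* at 0.0699 FPKM at 35.5 h. Of the 8 genes tested *Neurog1* was the only one lower at 144 h than at 140.5 h, where 45.5% of all genes were lower. Whether these libraries come from the same culture or batch was not tested.

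*Neurod1* read 1.15 FPKM at 0 h, 2.79 at 2.5 h, 6.38 at 20.5 h, 3.46 at 41.5 h, 12.4 at 53.5 h, 10.7 at 68.5 h, 6.64 at 80.5 h, 3.51 at 92.5 h, 5.40 at 144 h and 2.49 FPKM at 216 h. *Insm1* had an early peak in the same libraries, with 4.88 FPKM at 41.5 h, 7.86 at 53.5 h and 8.48 at 68.5 h, then 3.90 at 80.5 h and 3.72 at 101.5 h, and a later climb to 7.34 at 140.5 h and 11.1 FPKM at 216 h. Both genes were thus high at 53.5 and 68.5 h, before *Neurog1*, *Neurog2*, *Nhlh2* and *Myt1* reached 1 FPKM. *Neurod4* read 0.798 at 53.5 h, 1.26 at 68.5 h, 1.85 at 101.5 h, 2.75 at 125.5 h, 4.20 at 144 h and 1.42 FPKM at 216 h, a lower maximum than in SFEB culture.

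*Nhlh1* climbed from 0.0196 FPKM at 0 h through 0.916 at 41.5 h, 3.39 at 68.5 h, 6.29 at 101.5 h, 14.7 at 125.5 h and 24.1 at 144 h to 25.9 FPKM at 216 h, and each of its values after 0 h was higher than the one before. *Nhlh2* was at most 0.0816 FPKM up to 53.5 h and read 0.561 at 92.5 h, 1.2 at 101.5 h, 7.20 at 125.5 h, 15.6 at 144 h and 22.8 FPKM at 216 h. Its paralogue led in every one of these late libraries, with a ratio of *Nhlh1* to *Nhlh2* of 5.26 at 101.5 h that narrowed to 1.14 at 216 h. *Myt1* read 0.727 at 92.5 h, 0.651 at 101.5 h, 2.76 at 125.5 h, 4.72 at 140.5 h, 7.48 at 144 h and 16.7 FPKM at 216 h. *Olig2* (chr16:91225795-91228922, plus strand, 2 exons), the ventral progenitor gene, had a maximum of 1.24 FPKM at 101.5 h, after 1.13 at 92.5 h, and read 0.328 FPKM at 216 h.

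The slopes in the adherent culture were fitted over 15 libraries and 12879 genes. *Nhlh1* rose by 0.65 ± 0.04 per day (SE; adjusted p = 2.02e-08, limma), *Nhlh2* by 0.60 ± 0.07 (2.22e-06), *Neurog1* by 0.53 ± 0.08 (1.80e-05) and *Myt1* by 0.47 ± 0.05 (7.93e-07). *Neurog2* rose by 0.40 ± 0.04 per day (4.62e-07), *Insm1* by 0.32 ± 0.06 (2.77e-04) and *Neurod4* by 0.24 ± 0.04 (1.43e-04). The slope of *Neurod1* was -0.0033 ± 0.065 (adjusted p = 0.970, limma), with a 95% interval from -0.14 to 0.13. Here too 7 of the 8 genes tested rose, where 35.8% of all genes did, and the filter again limits what that count says. *Olig2* missed the filter. *Neurod1* did not show a detectable slope in either culture, and a straight line does not describe its peak at 53.5 h.

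**Figure D3:**
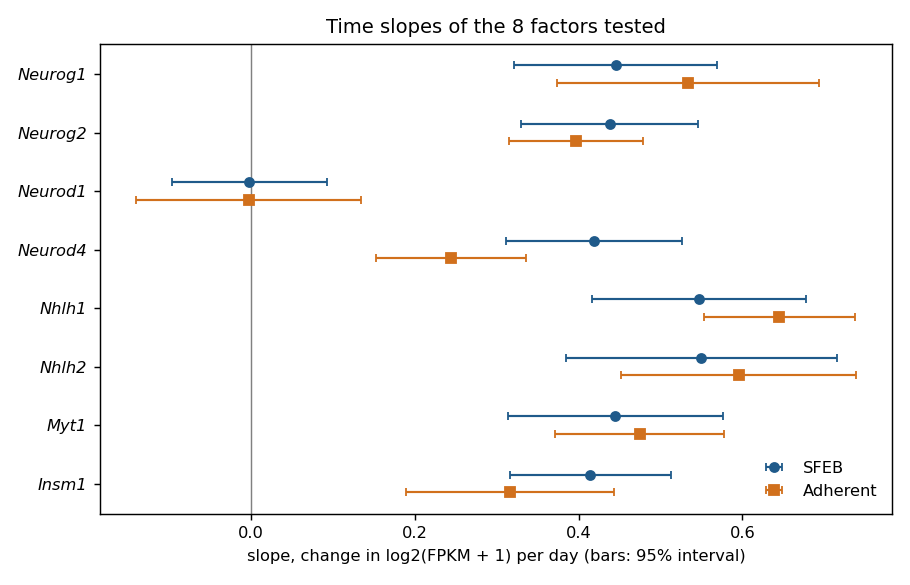
Time slopes of the 8 genes tested, in change of log2(FPKM + 1) per day (horizontal axis), with 95% intervals from limma over 22 SFEB libraries (circles) and 15 adherent libraries (squares). The interval of *Neurod1* includes 0 in both cultures, while those of the other 7 genes lie above 0.

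The order of appearance in the adherent culture was *Neurod1* at 0 h, *Insm1* at 20.5 h, *Nhlh1* at 53.5 h, *Neurod4* at 68.5 h, *Neurog1* at 80.5 h, *Nhlh2* at 101.5 h, and *Neurog2* and *Myt1* at 125.5 h, again as the first library from which the gene stayed at 1 FPKM. *Olig2* did not stay there. In both cultures *Neurod1* came first, *Insm1* followed (tied with *Neurod4* in the parallel series), and *Myt1* was last or tied for last. *Nhlh1*, a marker of newborn neurons, passed the threshold before the upstream *Neurog1* and *Neurog2* in the adherent culture and in the first SFEB series. In the parallel series the 3 genes tied at 144 h, and at 2 FPKM they tied in both SFEB series. Neighbouring times in this order rest on 1 library each and have no error.

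Genes that act with these factors were read from 11 lists, and their counts of rising and falling genes at an adjusted p below 0.05 (limma) follow. The median slope of all genes was 0.011 per day in SFEB culture and 0.022 in the adherent culture. Of all genes 35.5% rose and 27.4% fell in SFEB culture, and 35.8% rose and 24% fell in the adherent culture. A count near these shares does not set a list apart from all genes. Lists as short as those of the ventral and of the crest and placode genes are too small to judge by such counts, and no list was tested as a set. Of 7 other neural bHLH genes tested in SFEB culture 4 rose and 1 fell, with a median slope of 0.12. *Olig3* rose by 0.32 per day, and *Ascl2* fell by 0.24. In the adherent culture 3 of 5 rose, *Bhlhe22* by 0.29 among them, and 1 fell (median slope 0.18). Of 7 genes for E-protein partners and Id inhibitors, which bind E-proteins and block bHLH factors, 5 rose in SFEB culture (median slope 0.16; *Id4* 0.54, *Id2* 0.44) and 6 in the adherent culture (median slope 0.20; *Id2* 0.55, *Id4* 0.49). The 2 largest rises in this list were thus genes of the inhibitors in both cultures.

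Of 5 zinc-finger relatives 4 rose in SFEB culture (median slope 0.36), *Scrt2* by 0.54 and *Scrt1* by 0.44, and *Rest*, which encodes the repressor of neuronal genes outside neurons, fell by 0.26 per day. In the adherent culture 3 of 4 rose (median slope 0.38), *Scrt2* by 0.71 and *Scrt1* by 0.54, and *Rest* fell by 0.24. Proneural target genes rose in 11 of 13 cases in SFEB culture (median slope 0.25) and in 11 of 13 in the adherent culture (0.23). Among them *Dll1*, the Notch ligand gene, rose by 0.47 in SFEB culture, and *Ebf3*, a gene of the early neuronal programme, by 0.45 and 0.55 in the respective cultures. *Cbfa2t2* fell by 0.08 in SFEB culture. Of the neuronal genes 13 of 15 rose in SFEB culture (median slope 0.38; *Nefm* by 0.72, *Dcx* by 0.60) and 13 of 14 in the adherent culture (0.45; *Nefm* by 0.83, *Nefl* by 0.67).

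Markers of other cells moved over the same course, and their part in the members' rise was not tested. Progenitor genes rose in 7 of 10 cases in SFEB culture (median slope 0.28; *Fabp7* by 1.01, *Hes5* by 0.70) and in 9 of 10 in the adherent culture (0.23), where *Sox2* fell by 0.12. Of the ventral progenitor and oligodendrocyte genes 2 of 6 rose in SFEB culture (*Nkx6-1* by 0.45, *Nkx6-2* by 0.24) and 3 fell (*Cspg4* by 0.35 and *Gli1* by 0.29 the most), and in the adherent culture 2 of 5 rose and 1 fell, with median slopes of -0.029 and 0.16. *Sox10* and *Mnx1*, of oligodendrocyte lineage cells and motor neurons, were not found at 1 FPKM in any time course library, where a symbol that is not listed counts the same. All 6 pluripotency genes fell in both cultures, with median slopes of -0.53 and -0.45. The fibroblast genes fell in 8 of 8 cases in SFEB culture and in 7 of 8 in the adherent culture (medians -0.54 and -0.26), and crest and placode genes were mixed, with 4 rising and 2 falling in SFEB culture (*Sox9* up by 0.42, *Foxd3* down by 0.34) and 3 rising and 2 falling in the adherent culture (medians 0.17 and 0.14). Of the mesoderm and endoderm genes 2 of 3 and 4 of 4 rose (medians 0.27 and 0.34). The summed neuronal genes went from 211 to 940 FPKM in the first series, from 162 to 1573 FPKM in the parallel series and from 294 to 1648 FPKM in the adherent culture, between the first and the last library of each.

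The genes whose course most resembled each member were taken as the 3 with the highest Pearson r of log2(FPKM + 1), over the 22 SFEB libraries and, separately, over the 15 adherent libraries. These r describe courses in which most late genes rise together, in libraries they share. In SFEB culture *Neurog1* was closest to *Pou3f4*, *Ednrb* and *Nhlh1* (r 0.988 to 0.991), *Neurog2* to *2900092D14Rik*, *Npas3* and *Pou3f4* (r of 0.989), *Neurod4* to *Nhlh1*, *Sdk2* and *Chrna3* (r 0.970 to 0.975), and *Nhlh1* to *Onecut2*, *Ednrb* and *Pou3f4* (r 0.993 to 0.994). *Nhlh2* was closest to *St18*, *Scrt2* and *Myt1* (r 0.992 to 0.995), *Myt1* to *Scrt2*, *Otp* and *Scrt1* (r 0.994 to 0.996), and *Insm1* to *Snap25*, *Kif5c* and *Srrm4* (r 0.956 to 0.957). Within the group, such links ran between *Neurog1* and *Nhlh1*, *Neurod4* and *Nhlh1*, and *Nhlh2* and *Myt1*.

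*Neurod1* had no close partner among the other members. Its r with them was 0.057 to 0.360 in SFEB culture and -0.216 to 0.418 in the adherent culture. Among the genes closest to it were *Pik3cd* and *Mapk1ip1* (r 0.759 and 0.748) in SFEB culture and *Skil*, *Ube2k* and *Pspc1* (r 0.882 to 0.893) in the adherent culture. The closest genes of the other members were also different in the adherent culture: *Hs3st3a1*, *F930015N05Rik* and *Wnt7a* for *Neurog1* (r 0.987 to 0.992), *Tmem163*, *Sox5* and *Clvs1* for *Neurog2* (r 0.991 to 0.993), and *Nsmaf*, *Tmem123* and *Rnf139* for *Neurod4* (r 0.969 to 0.972). They were *Adcyap1r1*, *Nrarp* and *Abcd2* for *Nhlh1* (r 0.986 to 0.991), *Pdzrn4*, *Tspan18* and *6330527O06Rik* for *Nhlh2* (r 0.994 to 0.998), *Tmem169*, *Tspan11* and *Pcdhb19* for *Myt1* (r 0.995 to 0.997), and *Trp53i11*, *Dusp4* and *Hes6* for *Insm1* (r 0.958 to 0.971).

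In single SFEB cells each of these factors was found in few cells, and some of those cells held more than 1 of them. How often other genes are found together in a cell was not compared. At 1 RPKM or more *Neurod1* was found in 7 of 64 cells, *Neurog2* in 5, *Nhlh2* in 4, *Nhlh1* and *Insm1* in 3 each and *Olig2* in 2. A cell with at least 1 of the 6 genes was found 13 times, 7 of these at 216 h. Among the 7 was cell 16, with *Neurod1* at 3.08 RPKM, in which the 6 pluripotency genes summed to 1394 RPKM, against 6.77 to 75.6 RPKM in the other cells of that time. Cells with at least 2 of them numbered 6 of 64, and all 6 were at 106 h or later. At quantile-normalized values each cell had between 4432 and 4659 genes at this level, so that depth per cell could not be read.

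**Figure D4:**
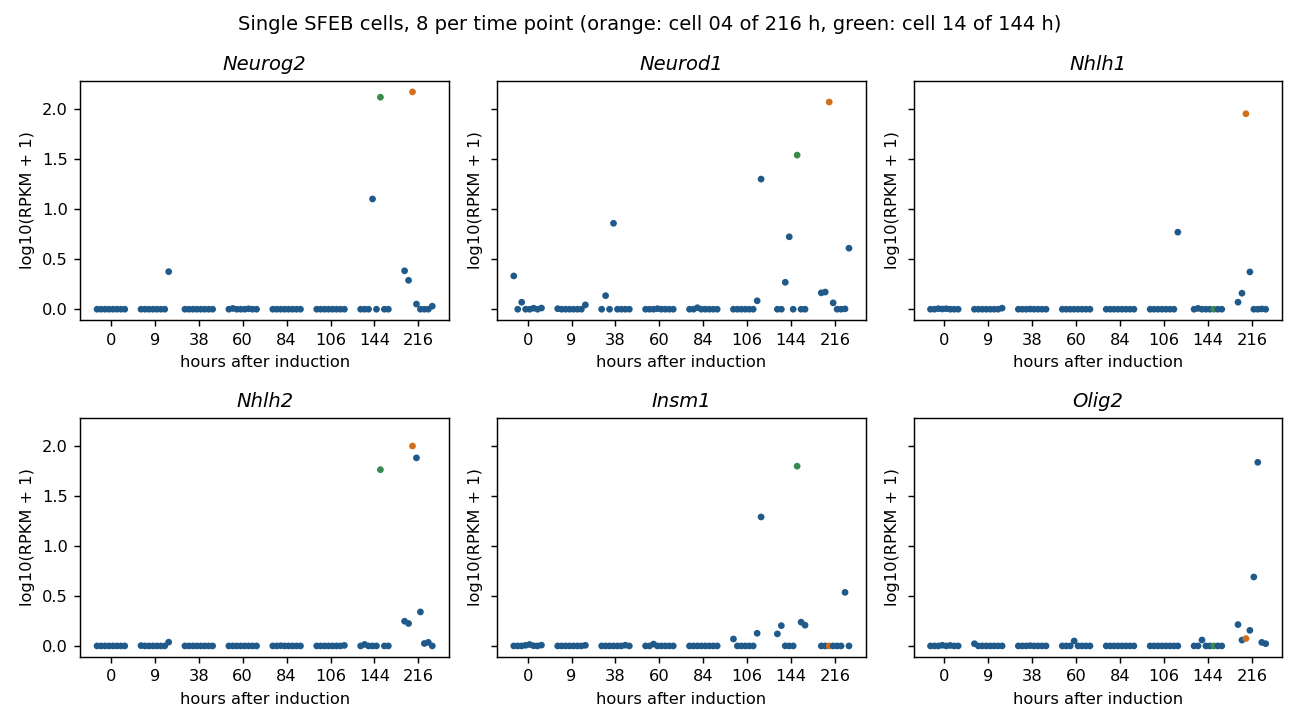
Levels of the 6 genes listed for single cells, as log10(RPKM + 1) (vertical axis), against time after induction (horizontal axis), with each of the 8 cells of a time point as a point. Most cells are at 0 and the highest values, up to 2.17 for *Neurog2*, belong to a few cells at 144 and 216 h.

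Cell 04 at 216 h held 4 of the genes, *Neurog2* at 2.17, *Neurod1* at 2.07, *Nhlh2* at 2.00 and *Nhlh1* at 1.96 on the log10(RPKM + 1) scale, and its *Insm1* was at 0. It held 8 of 12 proneural target genes and 6 of 10 neuronal genes at 1 RPKM or more. *Ebf2* and *Ebf3* were at 2.06 and 2.13 and *Elavl3* at 2.13, but *Dll1* was at 0.048 and *Snap25*, *Stmn3* and *Rbfox3* were at 0. Cell 14 at 144 h held another combination of 4, *Neurog2* at 2.12, *Insm1* at 1.80, *Nhlh2* at 1.76 and *Neurod1* at 1.54. It held 9 of 12 target genes and 5 of 10 neuronal genes, with *Dll1* at 1.49 and *Dll3* at 1.83, while *Gadd45g*, *Mfng* and *Elavl4* were at 0.

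Cell 12 at 106 h held 3 of the genes, with *Neurod1* at 1.3, *Insm1* at 1.29 and *Nhlh1* at 0.77, and only 4 of 12 target genes, *Dll3* and *Ebf3* being at 0. The other cells with 2 members differed as widely: cell 10 at 144 h held 9 of 12 target genes, cell 06 at 216 h held 6 and cell 07 at 216 h held 4. Over all 64 cells the count ran from 1 to 9 of 12. Cell 13 at 216 h, with 1 member, held 6 of 12 and had *Hes6* at 3.94 and *Dll1* at 2.56, above the *Hes6* and *Dll1* of cells 04 and 14. *Tubb3* was high in cell 04, at 3.44, and also at 3.28 in cell 13 at 9 h, before the late time points. Having several members and having target RNAs was thus not the same set of cells, and no test was made over so few.

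*Olig2* was seen in 2 of 8 cells at 216 h (25.0%, exact 95% interval 3.19 to 65.1%) and at 1.84 in cell 12, which held no *Neurog2*. *Nhlh2* was seen in 3 of 8 cells at 216 h (37.5%, 8.52 to 75.5%) and in 1 of 8 at 144 h. *Neurog2* was seen in 2 of 8 cells at both times. Some of these cells lie just above 1 RPKM: at 216 h *Neurog2* was at 1.42 RPKM in cell 01, *Nhlh1* at 1.36 RPKM in cell 06 and *Nhlh2* at 1.19 RPKM in cell 07, and a slightly higher threshold would leave out each of them and would take cells 06 and 07 out of those with 2 members. Such intervals cover counting error only. For *Nhlh2* 0 of 8 cells were found at each time up to 106 h, which allows a share of up to 37.5% by the limit of 3 cells (36.9% as the exact upper bound). This limits the share of cells at 1 RPKM or more, not of cells expressing the gene, since RNA can be missed in a cell.

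The mean level over the 8 cells was close to the population level for some genes and far from it for others. At 216 h *Nhlh2* had a mean of 22.1 RPKM in cells and 32.1 FPKM in the parallel population, and *Neurog2* 18.9 RPKM and 11.8 FPKM. *Insm1* had 0.304 RPKM and 22.5 FPKM there, and at 144 h *Nhlh1* had 0.00246 RPKM and 14.6 FPKM. *Neurod1* at 0 h had 0.172 RPKM in cells against 2.65 FPKM in the population. With 8 cells a gene carried by few cells can be missed, and the values were normalized in different ways, so that the difference was not tested.

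The time slope over the 8 time points, each the mean of 8 cells, was tested in limma over 11449 genes, and 1 of the 6 genes passed, where 1.67% of all genes rose. The authors state that they kept only genes above a low RPKM in at least 8 cells. The cells with *Nhlh2* at 1 RPKM or more were all at 144 and 216 h, so this count is not independent of that filter. *Nhlh2* rose by 0.061 ± 0.014 per day on the log10(RPKM + 1) scale (adjusted p = 0.0204, limma). *Neurog2* had a slope of 0.046 ± 0.014 (adjusted p = 0.0728, limma), *Olig2* of 0.034 (0.0966), *Neurod1* of 0.042 (0.133), *Nhlh1* of 0.029 (0.142) and *Insm1* of 0.021 (0.398). Of the proneural target genes 3 of 12 rose, *Hes6* by 0.16, *Btg2* by 0.15 and *Ebf3* by 0.05. Of the neural progenitor genes 4 of 10 rose, and of the pluripotency genes 4 of 6 fell, where 1.07% of all genes fell. Of the neuronal genes 0 of 10 were called (median slope 0.0019), with *Elavl4* at 0.050 and *Stmn2* at -0.089, and 0 were called of 6 other neural bHLH genes and of 7 genes for E-protein partners and Id inhibitors. The call of *Nhlh2* was lost with ranked times (adjusted p = 0.107, limma), where 0.332% of all genes rose, and with the log10 of the mean RPKM + 1 (0.106), where 0.0611% rose. Without cell 16 at 216 h *Neurog2* also passed (adjusted p = 0.0462, limma), and the share of all genes that rose was 2.7%, 309 genes against 191. Without the 216 h cells the slope of *Nhlh2* was 0.026 (adjusted p = 0.337, limma), and no gene of all 11449 was called.

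In the E14 cells, the question was whether loss of *Fyn* altered the course of differentiation, and 8 of the 9 genes were too low to pass the filter of 1 FPKM in 3 libraries. Only *Neurod1* passed the filter, which left 12257 genes. *Neurod1* read 0.412, 0.0357 and 0.0920 FPKM in wild type day 0, 0.626, 0.180 and 2.33 FPKM in wild type day 4, 0.0428, 0.0465 and 1.76 FPKM in *Fyn*-KO day 0 and 0.996, 1.36 and 0.827 FPKM in *Fyn*-KO day 4. Values of 1 FPKM or more came up in 1 library of the wild type, in 1 *Fyn*-KO day 0 library and in 1 *Fyn*-KO day 4 library, and the groups overlapped except that every *Fyn*-KO day 4 value was above every wild type day 0 value.

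The difference of *Neurod1* between day 4 and day 0 was 0.67 ± 0.43 on the log2(FPKM + 1) scale in wild type (SE; adjusted p = 0.273, limma), where 25.8% of all genes were called in either direction. In *Fyn*-KO cells the difference was 0.50 ± 0.43 (adjusted p = 0.430, limma), with 19.3% of all genes called. Between *Fyn*-KO and wild type it was 0.14 ± 0.43 on day 4 (adjusted p = 0.936, limma), with 0.0734% of genes called, and 0.31 ± 0.43 on day 0 (0.798), with 0.171% called. That day 0 background rests on single libraries: 5 genes were higher and 16 lower, against 25 and 136 without wild type day 0 replicate 1 and 2 and 5 without *Fyn*-KO day 0 replicate 1, and *Neurod1* was called in neither. The difference of the day 4 effect between the genotypes was -0.16 ± 0.60 (adjusted p = 0.997, limma), with 0.0% of genes called. Leaving out 1 replicate moved these values: the wild type difference between the days ranged from 0.25 (without day 4 replicate 3) to 0.99 (without day 4 replicate 2), and the *Fyn*-KO difference from 0.27 (without day 0 replicate 1 or 2) to 0.97 (without day 0 replicate 3), none of them called. With a pseudocount of 0.1 in place of 1 the differences were 1.74 ± 1.05 in wild type and 1.75 ± 1.05 in *Fyn*-KO (adjusted p = 0.247 and 0.261, limma), and with quantile normalization 0.45 and 0.20, also not called, so their size depends on these choices. *Neurod1* thus passed 0 of 5 limma tests, which share libraries, with a lowest unadjusted p of 0.144, and the interval of the day 4 difference between genotypes, -0.79 to 1.07, is wide. Without *Fyn*-KO day 0 replicate 3 the day 0 difference between genotypes was -0.16, and without wild type day 4 replicate 2 the day 4 difference was -0.18. The labels do not say whether replicates were separate cultures, so these p-values measure the spread between the samples, which may be technical. *Fyn* itself was at -1.74 in *Fyn*-KO against wild type on day 4 (adjusted p = 0.0193, limma) and at -1.29 on day 0 (0.0601), which misses the threshold.

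Of the 9 genes, 7 had their highest E14 level in the same library, wild type day 4 replicate 1, as did 17% of all 18841 genes above 0 in any E14 library. *Neurog2* was at 3.66 FPKM there and at most 0.0206 FPKM in the other 11, and *Neurog1*, *Neurod4*, *Nhlh1* and *Insm1* at 1.28, 1.38, 1.42 and 1.26 FPKM against at most 0.143, 0.463, 0.598 and 0.522 FPKM. In the other wild type day 4 libraries *Neurog2* was listed at 0 in both. This library was low in the pluripotency genes, which summed to 474 FPKM against 867 and 900 FPKM in the other wild type day 4 replicates, and high in neuronal and progenitor genes. Its neuronal sum was 153 FPKM against 75.0 and 96.7 FPKM, and its progenitor sum 371 FPKM against 227 and 252 FPKM. Its summed FPKM was 909370, of which *Snord22* had 255500, and *Snord22* was also at 158600 and 219000 FPKM in wild type and *Fyn*-KO day 4 replicate 2 and at 0 in the other 9 libraries. The part of these in the levels was not tested. In *Fyn*-KO day 4 *Insm1* read 0.263, 0.497 and 0.522 FPKM. Wild type day 4 gave 1.26, 0.0324 and 0.432 FPKM, so *Insm1* was above 0 in every replicate of both groups. *Neurog1* was listed at 0 in all 3 *Fyn*-KO day 4 replicates and in wild type day 4 replicate 3.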

How the data were processed

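RNA-seq values of 22 SFEB populations, 64 SFEB single cells, 15 adherent libraries and 12 E14 libraries were analysed, all grouped from their labels. The study's methods state mapping to mm9 with Tophat and expression with Cufflinks; the submitters' processing notes name TopHat2 2.0.8b, Cufflinks 2.1.1, mm9 and mm10. FPKM of the adherent and E14 libraries were deposited by the authors without a stated batch correction. The authors' FPKM of the SFEB populations carry a ComBat correction whose batches are not given in the sources used here, and these deposited values are on another scale than raw FPKM, with 1256 values below 0 that were set to 0. The deposited log10 values of the single cells are log10(RPKM + 1), quantile normalized by the authors between cells. No counts were used, so read depth is unknown.

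Values were tested as log2(FPKM + 1), a scale that understates changes of low genes, in limma 3.58.1 (R 4.3.3) with trended empirical Bayes variance. Genes had to reach 1 FPKM in at least 3 libraries of a table, except in the single cells, where all 11449 genes of the table were tested, a set that the authors had already filtered by level. The p-values are two-sided and were Benjamini-Hochberg adjusted over all genes tested, with a threshold of 0.05. Slopes are per day. Cells of 1 time point were averaged and counted as 1 sample. Detection in a cell meant 1 RPKM or more, and intervals of shares are exact binomial at 95%. The limit that a count of 0 allows is 3 cells. The limma procedure was tested on simulated data.

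The 9 genes and the gene lists were chosen with earlier results of these data known. Named are the 9 genes, the 3 genes most like each in course, up to 2 rises and 2 falls per list, and *Fyn*; genes named in single cells and *Snord22* were chosen after their values were seen. Some genes that this rule names are not reported here. Alternatives covered the pseudocount (0.1), the filter, ranked times, left-out samples, quantile normalization and a replicate block. Promoter windows are from RefSeq on GRCm38.p6, gene positions from GENCODE on NCBIM37. Whether equal replicate numbers pair the E14 samples was checked from the correlation of deviations from group means. It was 0.199, 0.220 and 0.224 for wild type on days 0 and 4 and 0.136, 0.258 and 0.240 for wild type and *Fyn*-KO on day 4, which counts as pairing here, and for the other group pairs it was as low as -0.115.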

Additional observations from a re-analysis of the deposited data

Results flagged for a closer look

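In 14 of 48 sets of the 8 cells of a time point, the highest cell lay further from the others than Dixon's 95% critical value for 8 values. Chance flags about 1 in 20 sets, and a gene found in 1 cell of 8 is flagged by construction. All values are log10(RPKM + 1). At 216 h cell 04 was flagged for *Neurog2* at 2.17, *Neurod1* at 2.07 and *Nhlh1* at 1.96. At 144 h cell 14 was flagged for *Insm1* at 1.80, *Nhlh2* at 1.76 and *Neurod1* at 1.54. At 106 h cell 12 was flagged for *Neurod1* at 1.3, *Insm1* at 1.29 and *Nhlh1* at 0.771. These 3 cells account for 9 of the 14 flags. Cells flagged for 1 gene were cell 12 at 216 h for *Olig2* at 1.84, cell 06 at 38 h for *Neurod1* at 0.860, cell 13 at 216 h for *Insm1* at 0.536, cell 13 at 9 h for *Neurog2* at 0.376 and cell 01 at 0 h for *Neurod1* at 0.333.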

How the results depend on the processing

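Across the alternatives tried for them, 7 of 8 genes rose in SFEB culture and 7 of 8 in the adherent culture (8 of 9 without the filter on low values, which adds *Olig2*), and *Neurod1* was called in 0 of the 5 E14 comparisons (0 of the genes without the filter). The single-cell count of 1 called gene of the 6 was 0 with the log10 of the mean RPKM + 1, 0 with ranked times, 2 without cell 16 at 216 h and 0 without the 216 h cells; the cause was not tested. The slope of *Neurod1*, uncalled throughout, turned positive in SFEB culture in the parallel series alone (0.074) and in the adherent culture with a pseudocount of 0.1 (0.0041), with ranked times (0.019 per rank), without the 216 h library (0.068) and without the 144 and 216 h libraries (0.072). Without the 216 h library the uncalled differences of slopes between the SFEB series turned to -0.0062 for *Nhlh1*, -0.020 for *Nhlh2* and -0.11 for *Myt1*, and the genes called in that test went from 968 to 85. For *Neurod1* in E14 cells, leaving out 1 replicate in turn gave -0.18 (without wild type day 4 replicate 2) to 0.57 (without wild type day 4 replicate 3) for the day 4 difference between genotypes and -0.16 (without *Fyn*-KO day 0 replicate 3) to 0.54 for the day 0 difference. Its difference of the day 4 effect was 0.012 with a pseudocount of 0.1 and ranged from -0.49 (without wild type day 4 replicate 2) to 0.31 (without *Fyn*-KO day 0 replicate 3), with 0.26 without wild type day 4 replicate 3. With the replicate number as a replicate block, *Neurod1*, the only one of the 9 genes tested there, was called in 0 of the 5 E14 comparisons. Over all genes the block moved the day 0 genotype calls from 5 higher and 16 lower to 7 and 31, and the difference of the day 4 effect from 0 to 1 higher and 1 lower. Without 1 replicate, day 4 against day 0 had as few as 1104 higher and 739 lower genes in wild type (without day 0 replicate 2; 1281 and 726 without replicate 3) against 1904 and 1262, and 636 and 407 in *Fyn*-KO (without day 0 replicate 2; 786 and 497 without replicate 1, 657 and 501 without day 4 replicate 3) against 1443 and 927. Times of appearance changed in 33 of 47 cases with a threshold of 0.5 or 2 FPKM. Single libraries per time point, 8 cells per time point and unknown read depth limit what can be said of low levels.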
